A study of Mus musculus with 12 samples.

Results

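Histone genes were read in polyadenylated RNA of the embryonic mouse brain. The genes are the protein-coding rows of the gene count table whose symbol starts with Hist1h, Hist2h, Hist3h or Hist4h, or with H1f, H2f or H3f, taken once per Ensembl identifier. This gave 73 of the 40690 gene identifiers. They fall into 2 classes by name: 67 replication-dependent genes (Hist1h to Hist4h) and 6 replacement genes (H1f0, H1fx, H1fnt, H1foo, H3f3a and H3f3b). A further 6 name matches, H3f3aos and 5 pseudogenes, are of other biotypes and were left out of both classes.

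Whole brains of C57BL/6J embryos at embryonic day 14.5 gave 12 libraries, 1 per embryo, in 4 groups of 3. LC1 is a DNA element that was deleted in the LC1 knockouts (embryos 7, 22 and 71), which were set against LC1 wild types (6, 26 and 73), and all 6 were female. RKI homozygous embryos (A1, A10 and A18) had a human sequence variant knocked in on both alleles, and RKI wild types (A2, A9 and A16) did not, with 1 female (A10 and A9) and 2 males in each group. Wild-type and mutant embryos were matched by sex and litter, per the protocol, but the litter of each embryo is not named. Total gene counts ran from 18192984 to 26566769 per library. The neuronal genes Stmn2 and Gap43 had mean levels of 694 and 482 CPM (counts scaled to library size by TMM), and the progenitor gene Nes had 376 CPM, so genes of the labelled tissue were present. Embryo A16 had the highest summed level of 20 S-phase genes, 1520 CPM against a median of 1181 over the 12 libraries, and of 14 mitosis genes, 1808 against 1306 CPM. Results found to move with A16 are therefore given with and without it. Of the gene lists, only the S-phase and mitosis lists were refitted without A16.

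Chromatin needs histones in bulk while DNA is copied, and the replication-dependent genes, clustered and mostly without introns, supply them in S phase. Their mRNAs usually end just after a short stem-loop that binds the protein Slbp, and carry no poly(A) tail. Replacement histones are made through the whole cell cycle from separate genes whose mRNAs have poly(A) tails. The libraries were made with oligo-dT, which binds poly(A), so a replication-dependent count here reads tailed or otherwise captured RNA and is not the gene's total output.

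The 3′ ends of the annotated transcripts carry the feature that sets the classes apart. In the GENCODE M21 transcripts (build GRCm38), 44 of the 67 replication-dependent genes held the stem-loop, searched on the sense strand as the 16-base pattern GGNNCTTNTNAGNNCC, and 0 of the 6 replacement genes did. The pattern occurred in 0.278% of the 58713 other protein-coding transcripts, counted per transcript and not per gene. The sequences below are those of abundant or tested genes, 5′ to 3′, with the stem-loop in capitals and 5 bases on each side.
Hist3h2ba stem-loop: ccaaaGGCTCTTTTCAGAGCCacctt
Hist3h2a stem-loop: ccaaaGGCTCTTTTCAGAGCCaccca
Hist1h1c stem-loop: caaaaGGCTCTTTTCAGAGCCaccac
Hist1h3c stem-loop: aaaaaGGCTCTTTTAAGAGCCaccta
Hist1h4i stem-loop: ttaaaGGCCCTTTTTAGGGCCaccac
Hist2h4 stem-loop: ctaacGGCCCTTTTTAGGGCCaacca
Hist1h2ao stem-loop: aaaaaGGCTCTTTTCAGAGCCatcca

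The commonest form, shown for Hist3h2ba, was shared by 24 genes of the H1, H2A, H2B and H3 families and by none of the 12 H4 genes with a stem-loop. The H4 form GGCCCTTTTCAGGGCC occurred in 7 genes, and the form of Hist1h4i in 2.

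Many of these transcripts do not stop at the stem-loop in the annotation. In 22 of the 44 genes with a stem-loop at most 100 bases followed it, like the usual end described above. In 12 genes the annotated transcript ran on by more than 100 bases to a poly(A) signal (AATAAA or ATTAAA) within its last 50 bases, and in 10 it ran on without one. These limits of 100 and 50 bases were chosen after values were seen. A further 3 replication-dependent genes, Hist2h2be among them, had a signal and no stem-loop. At least 1 transcript with a poly(A) signal was found in 5 of the 6 replacement genes. The share of other protein-coding transcripts with a signal was 50.2%, counted per transcript and not per gene, so these shares are not alike. The last bases of 5 transcripts are shown with the signal in capitals.
Hist3h2ba end: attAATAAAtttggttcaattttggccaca
Hist1h4i end: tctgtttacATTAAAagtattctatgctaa
H1f0 end: aactttaaAATAAAactggaaaggaaaaaa
H1fx end: ctggggcgcAATAAAcggttccaaccttga
H3f3a end: tgaaaaatAATAAAagtaccaatagaagaa

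By gene RPKM, the 12 genes that run on to a signal summed to 144 ± 6.98 RPKM (reads per kilobase, scaled to library depth; SD, n = 12 embryos), against 6.45 ± 0.962 RPKM for the 22 genes that end near the stem-loop. Hist3h2ba alone gave 120 RPKM of the first sum. The 20 genes with neither a stem-loop nor a signal, Hist1h2af among them, summed to 44.0 ± 19.1 RPKM. Several of their annotated transcripts are short, such as 312 bases for Hist1h4k, 381 for Hist1h2bl and 399 for Hist1h2af. The search would miss a 3′ end that the annotation leaves out, so this set may not be a distinct kind of end. The estimated counts of the deposited transcript table reversed the order of the first pair, with 7201 for the 12 genes and 14553 for the 22. Of the 12, 9 had enough counts to be tested, and of the 22 only Hist1h3c had. In the annotation 169 bases follow the stem-loop of Hist3h2ba, 1643 that of Hist3h2a and 840 that of Hist1h1c.

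Replacement genes were higher than replication-dependent genes per length of transcript. The 6 replacement genes summed to 315 ± 17.6 RPKM (SD, n = 12) with a range from 285 in A9 to 343 in A16. The 67 replication-dependent genes summed to 205 ± 22.8 RPKM, from 173 in embryo 22 to 251 in A10. The replacement sum was the higher of the pair in all 12 libraries, by 1.18-fold in A10 to 1.97-fold in embryo 22. The median gene had 44.7 RPKM in the replacement class and 0.28 RPKM in the replication-dependent class, against 2.07 RPKM over 21775 protein-coding genes. Genes of a class are not replicates, so no test was made between classes, and in bulk brain fewer cells of a type and less RNA per cell cannot be told apart.

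**Figure D1:**
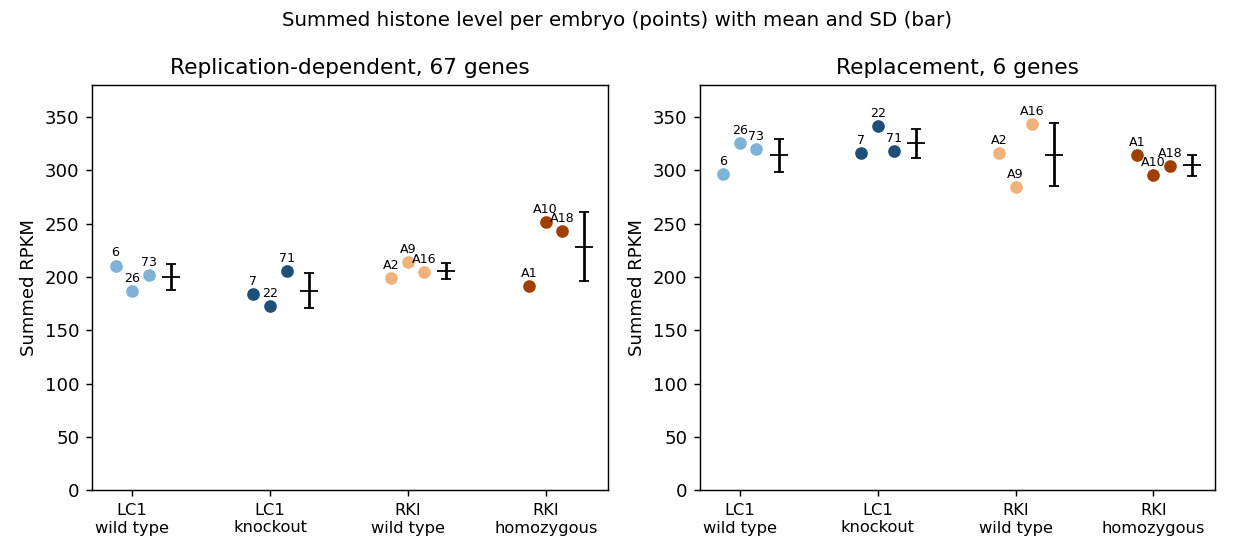
Summed RPKM of the replication-dependent (left) and replacement (right) genes in each embryo (points, labelled by embryo), with the group mean and SD (bar) for LC1 and RKI groups of 3. Replacement sums lie between 285 and 343 and replication-dependent sums between 173 and 251, and A10 and A18 have the highest replication-dependent sums.

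Among the replacement genes H1f0, the linker histone H1.0 that builds up in differentiated cells, had the highest gene RPKM, though not the highest transcript estimate (below). It lay at 120, 135 and 144 RPKM in LC1 wild types, 137, 137 and 144 in LC1 knockouts, 136, 117 and 148 in RKI wild types and 133, 123.4 and 125 in RKI homozygotes. The mean was 133 ± 9.89 RPKM, and all 4 groups overlapped. H3f3b, 1 of 2 genes for the replacement histone H3.3, followed at 92.1 ± 6.73 RPKM, and H1fx, a linker histone of many tissues, at 82.9 ± 4.52 RPKM. The ranges of H3f3b (82.5 to 104) and H1fx (78.0 to 93.7) overlapped across embryos, but H3f3b was above H1fx in all 12 libraries, as H1f0 was above H3f3b. H3f3a, the other H3.3 gene, had 6.46 ± 0.502 RPKM in the gene table. H1foo and H1fnt, linker histones of germ cells, were almost absent: H1foo had a mean of 0.0289 RPKM and H1fnt was at 0 in every library.

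By gene RPKM, Hist3h2ba, an H2B gene of the small Hist3 cluster, made up 58.8% of the replication-dependent sum on average. It reached 120 ± 7.22 RPKM and ranked 229 among all genes by mean RPKM, close to H1f0 at rank 196. The deposited transcript estimates put Hist1h2ao above it, at a mean transcript RPKM of 944 against 203 for Hist3h2ba. Hist3h2a, an H2A gene next to Hist3h2ba, had 10.1 ± 0.889 RPKM by gene. The pair lies on the plus strand of chromosome 11 (GRCm38), Hist3h2ba at chr11:58948920-58949533 and Hist3h2a at chr11:58954685-58956830. The annotated start of Hist3h2a is also that of Trim17 on the same strand, so the counting may have split or dropped reads there.

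Hist1h2af, an H2A gene on chromosome 13, came next at 32.0 RPKM but ran from 9.76 to 64.8 RPKM over the embryos. After it came Hist1h2bc (6.67 ± 0.900) and Hist2h2be (6.30 ± 0.553), both H2B genes, then Hist1h4i (5.73 ± 0.923), an H4 gene, and Hist1h1c (3.74 ± 0.696), the linker histone H1.2. The ranges of Hist1h2bc (4.92 to 8.12), Hist2h2be (5.48 to 7.19) and Hist1h4i (4.88 to 7.97) overlapped, and their order varied, with Hist1h2bc above Hist2h2be in 8 of 12 libraries and Hist2h2be above Hist1h4i in 9. Hist1h2ak, Hist1h3c and Hist1h2ae followed at 2.25, 2.20 and 2.02 RPKM, with ranges that also overlapped. Beyond these 10 genes only Hist1h4d averaged at least 1 RPKM.

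**Figure D2:**
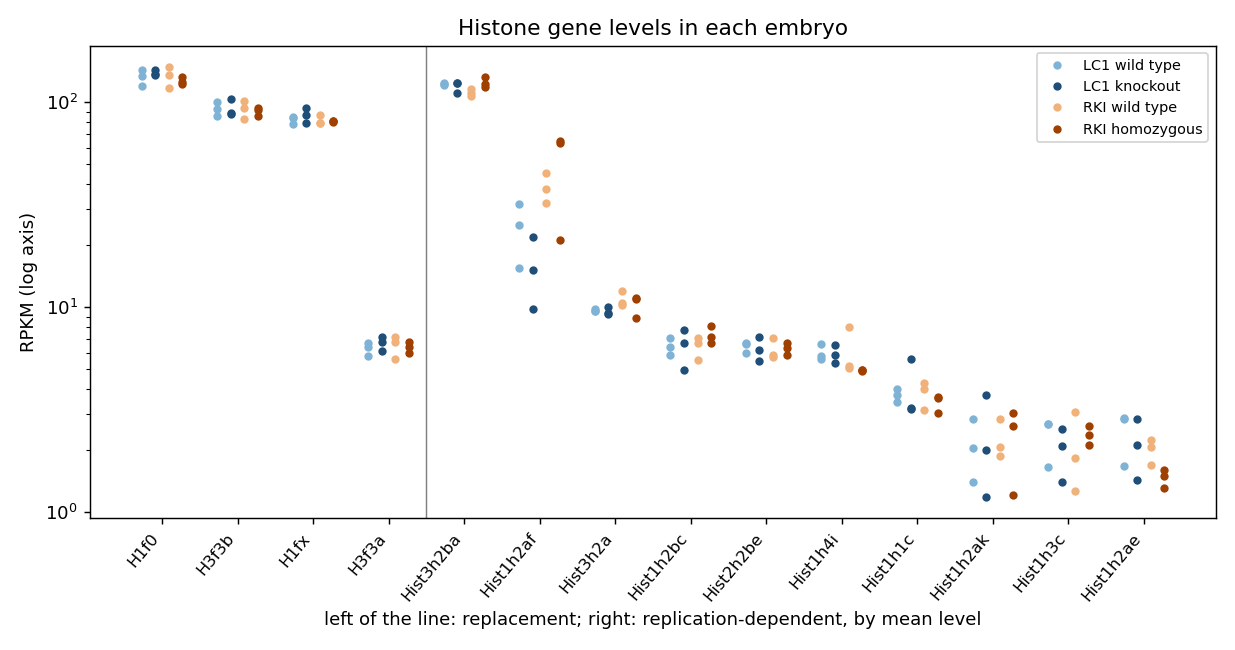
RPKM (log axis) of the 4 abundant replacement genes and the 10 highest replication-dependent genes, with 1 point per embryo coloured by group. Hist3h2ba, at 107 to 132 RPKM, sits at the level of H1f0, and Hist1h2af is the widest, at 9.76 to 64.8 RPKM.

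By gene RPKM, histone families were uneven within the replication-dependent class. H2B genes summed to 136 RPKM and H2A genes to 49.4 RPKM, whereas H4, H3 and H1 genes summed to 10.8, 4.797 and 4.69 RPKM. Estimated transcript counts reversed the order of H2B and H2A, with 4956 for H2B and 18702 for H2A. The 55 genes of the Hist1 cluster, on chromosome 13 where M21 places them, together had 67.01 RPKM by gene. The 2 genes of the Hist3 cluster had 130 ± 6.73 RPKM. Estimated transcript counts reversed this order too, with 17646 for Hist1 and 6506 for Hist3. The 9 genes of the Hist2 cluster on chromosome 3 had 8.41 RPKM, and Hist4h4 on chromosome 6 had 0.149 RPKM. In all, 10 replication-dependent genes were at 0 counts in every library, and 50 did not pass the filter on low counts; these 50 shared a mean of 108 counts per library.

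The deposited transcript table gave a different picture of the same genes. Summed over the 67 genes, gene counts averaged 3342 per library and the estimated transcript counts 25157, a ratio of 7.53. Most of the excess was in H2A genes, with 836 gene counts and 18702 estimated counts. By transcript end, most was in genes that end near the stem-loop, with 67.9 and 14553. H2B, H3 and H4 genes also had more estimated than gene counts, at 4956 against 2131, 512 against 64.2 and 829 against 168. H1 genes had 159 against 143. Most of the total excess was assigned to Hist1h2ao, an H2A gene with a mean gene count of 0.0833 and an estimate of 13169. Hist1h2aj, listed as a pseudogene and not a member, had 1.67 gene counts and an estimate of 21090.

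These are near-identical copies. A median of 47.7% of the 50-base stretches in a replication-dependent gene's M21 transcripts occurred in no other gene, against 100% for replacement genes, and for Hist1h2ao the share was 6.50%. The rule for reads that fit several genes is not stated in the labels, so both the low gene counts and the high estimates of such copies are uncertain. For Hist3h2ba the tables were closer, with 1606 gene counts and an estimate of 3638, and for H1f0 they gave 6665 and 6225.

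H3f3a differed most between tables among the replacement genes. It had 498 gene counts and an estimate of 30689, while H3f3b had 6028 and 16733, so the order of the H3.3 genes was reversed between tables. Transcript H3f3a-006 held 18431 of the H3f3a estimate and H3f3a-007 held 11515. Of the 50-base stretches in all transcripts of H3f3a, 87.7% occurred in no other gene, but the share was 56.1% for H3f3a-006 and 34.7% for H3f3a-007. H3f3aos is annotated on the opposite strand across H3f3a, and the labels do not say whether the counting used strand. Which table is closer to the RNA content was not tested.

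**Figure D3:**
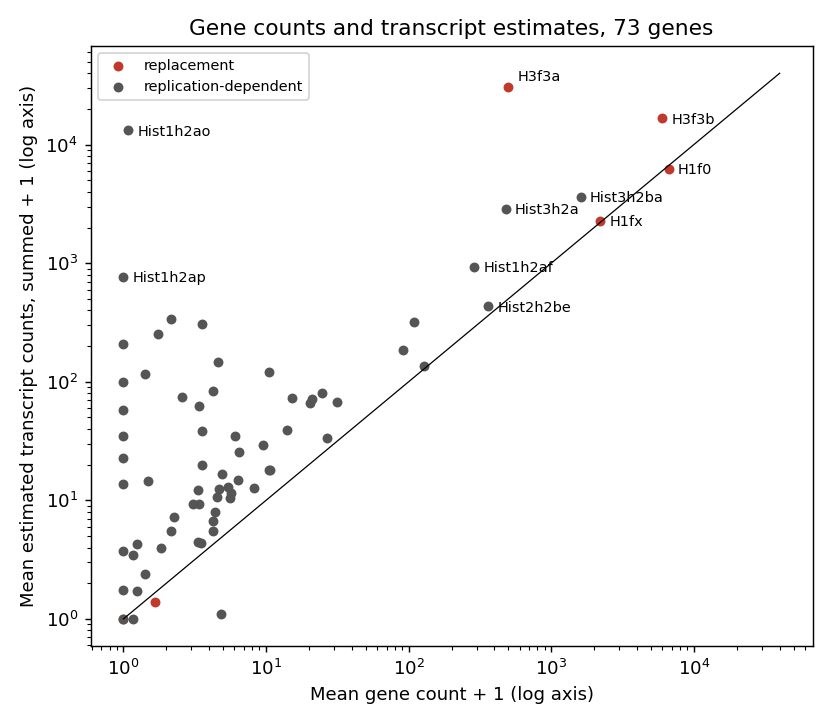
Mean gene count (x, log axis, plus 1) against the mean estimated counts summed over a gene's transcripts (y, log axis, plus 1) for the 73 genes, with the line of equality. H1f0 and H1fx lie on the line, H3f3a lies far above it, and Hist1h2ao has a mean of 0.0833 gene counts with an estimate of 13169.

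Most members varied between embryos about as much as other genes of like abundance. The biological coefficient of variation, the spread between embryos beyond counting error within groups, was 5.31% for Hist3h2ba and 6.01% for H1f0, against medians of 5.79% and 5.83% for genes within 2-fold of their level. Hist1h2af and Hist1h2ak, both H2A genes, stood furthest above this. Hist1h2ak was at 25.6% against a median of 14.1%, and 68 of 2268 genes of like level were higher. Hist1h2af was at 37.4%, and 7 of 3729 genes of like level were higher. Hist1h2af lay at 12.9, 6.17 and 10.03 CPM in LC1 wild types 6, 26 and 73, and at 3.95, 6.06 and 8.76 CPM in knockouts 7, 22 and 71. In the RKI embryos it lay at 15.02, 18.1 and 12.7 CPM in wild types A2, A9 and A16, and at 8.54, 25.8 and 25.6 CPM in homozygotes A1, A10 and A18. Homozygote A1 thus fell below every RKI wild type, and A10 and A18 stood above all other libraries.

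The annotated 399 bases of Hist1h2af hold no stem-loop and no poly(A) signal, but sequence past these bases was not searched. Of its 50-base stretches, 20.3% occurred in no other gene. The annotated gene Gm44297 overlaps it on the opposite strand. Among the tested non-members, those whose log2 CPM followed Hist1h2af most closely were Zfp341 (Pearson r = 0.89), Cmbl (0.89), Scarna2 (0.86), Rn7sk (0.84) and Ldhd (0.84), over 12 libraries that differ in experiment and depth. Rn7sk and Scarna2 are small nuclear RNAs not known as polyadenylated, with 0.427 to 1.76 CPM and 4.59 to 10.2 CPM. The S-phase genes Pcna and Rrm2 gave r = -0.10 and -0.21. Hist1h2af, and these genes with it, were singled out after their values were seen, and no background for the highest r was computed.

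**Figure D4:**
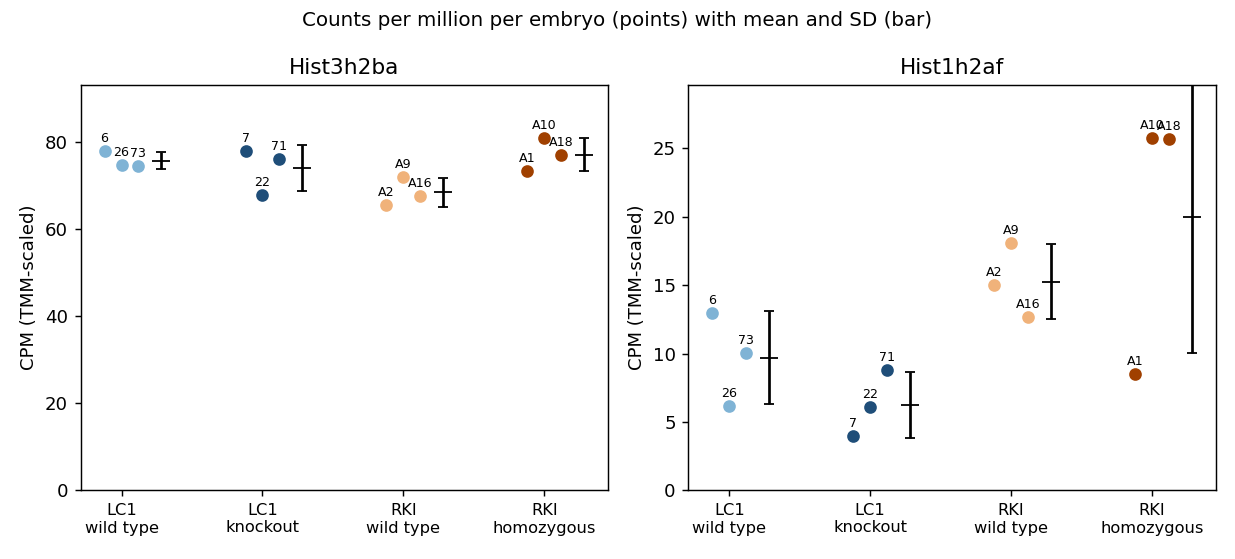
CPM of Hist3h2ba (left) and Hist1h2af (right) in each embryo (points, labelled), with the group mean and SD (bar). Hist3h2ba stays between 65.5 and 80.9 CPM, whereas Hist1h2af runs from 3.95 to 25.8 CPM and splits the RKI homozygotes.

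The LC1 knockouts were compared with their wild types to ask whether losing the element changed histone RNA. No member passed: of the 21 that could be tested (17 replication-dependent and 4 replacement), 0 had an adjusted p under 0.05 by edgeR, as did 0 of all 16002 genes, a background of 0%. At an unadjusted p under 0.05 the counts were 0 members and 334 genes (2.09%), and DESeq2 and limma-voom also called 0 genes after adjustment. The median log2 fold change was -0.03 for the replication-dependent genes, with 5 higher and 12 lower, and 0.07 for the replacement genes, all 4 of them higher, against 0.00 over all genes, of which 48.6% were higher.

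H1fx, H1f0 and H3f3a had the smallest p-values of the replacement class, with log2 fold changes of 0.07 (SE 0.0654), 0.07 (SE 0.0656) and 0.09 (SE 0.0836). Over left-out libraries these ran from 0.02 to 0.14, 0.01 to 0.13 and 0.02 to 0.15. Hist3h2ba differed by -0.04 (SE 0.0614), with 77.9, 74.6 and 74.4 CPM in wild types and 77.7, 67.8 and 76.1 CPM in knockouts. The groups overlapped for each of these genes. In the replication-dependent class the smallest p-values belonged to Hist1h3e, Hist1h4d and Hist1h2be. Hist1h3e, an H3 gene, had only 10, 6 and 14 counts in wild types and 6, 7 and 4 in knockouts, and after scaling it was the only tested member whose LC1 groups did not overlap, where 7.16% of all tested genes did not. The groups also did not overlap for 3 of the 50 replication-dependent members too low to test (Hist1h2ag, Hist1h2bb and Hist1h2bl), all at or under 0.353 CPM. The share among other genes too low to test was not computed, so this count has no background. The log2 fold change of Hist1h3e was -0.91 (SE 0.465, adjusted p = 1 by edgeR), and it was lower in knockouts without any 1 library, at -1.13 to -0.61. Hist1h4d, an H4 gene, was at 0.81 (SE 0.460) from counts of 3 to 18, but at 0.49 without wild type 26 and 1.34 without wild type 73, and Hist1h2be, an H2B gene, was at 0.34 (SE 0.252).

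Hist1h2af was at -0.64 (SE 0.491) with an adjusted p of 1 by edgeR. When all 27458 genes with a count were kept, the test gave nearly the same fold change, -0.64, but an adjusted p of 0.00583. The call thus depended on the low-count filter, and under the other tools and settings the adjusted p was 0.937 to 1. In the authors' deposited table Hist1h2af was at -0.61 with p = 0.000617 and an adjusted p of 0.619, and 3 of 57 listed members (5.26%) had an unadjusted p under 0.05, near the 1117 of 25842 genes (4.32%) there. No member of the authors' deposited table passed after adjustment (0 of 57).

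The RKI comparison asked the same of the variant. By edgeR 0 of the 21 members and 0 of 16002 genes (0%) passed after adjustment, and 2 members and 307 genes (1.92%) had an unadjusted p under 0.05. DESeq2 and limma-voom also called 0 genes. The median log2 fold change was 0.01 over the 17 replication-dependent genes and -0.02 over the 4 replacement genes, against 0.00 over all genes. Of these, 9 of 17 and 0 of 4 were higher, against 50.6% of all genes. Both members under 0.05 were replication-dependent.

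Hist3h2ba lay at 65.5, 71.9 and 67.6 CPM in RKI wild types and at 73.2, 80.9 and 76.9 CPM in homozygotes. All 3 homozygotes were above all 3 wild types, by 0.17 on the log2 scale (SE 0.0608), and the unadjusted p of 0.0112 by edgeR became 1 after adjustment. Leaving out each library in turn gave 0.15 to 0.19. The LC1 libraries ran from 67.8 to 77.9 CPM, and the RKI wild types A2 and A16 were the lowest of the 12 libraries. Every RKI wild type was below every LC1 wild type. The LC1 embryos differ from the RKI embryos in line and litter, so their range is no reference for the RKI genotypes. In the authors' deposited table the value was 0.17 with an adjusted p of 0.997.

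Hist2h4, an H4 gene on chromosome 3 with a long annotated extension after its stem-loop, went the other way. It had 46, 49 and 26 counts in wild types, or 1.79, 2.05 and 1.17 CPM, and 14, 23 and 30 counts in homozygotes, or 0.607, 1.13 and 1.14 CPM. The groups did not overlap but A16 and A18 were separated by little, and the log2 fold change was -0.79 (SE 0.281, adjusted p = 1 by edgeR). Hist1h4i, next by p, was at -0.28 (SE 0.170) but at -0.048 without A16. Hist1h2ae, an H2A gene, was the other tested member whose RKI groups did not overlap, at -0.43 (SE 0.319). Over all tested genes 5.67% had RKI groups that did not overlap. The RKI groups also did not overlap for 5 of the 50 replication-dependent members too low to test (Hist1h1a, Hist1h1d, Hist1h3b, Hist1h4c and Hist1h4f). All 5 were at or under 0.272 CPM, and no share among other genes too low to test was computed. H1f0, H3f3b and H3f3a were at -0.06, -0.02 and -0.02, and without A16 H3f3b and H3f3a were at 0.02 and 0.01.

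**Figure D5:**
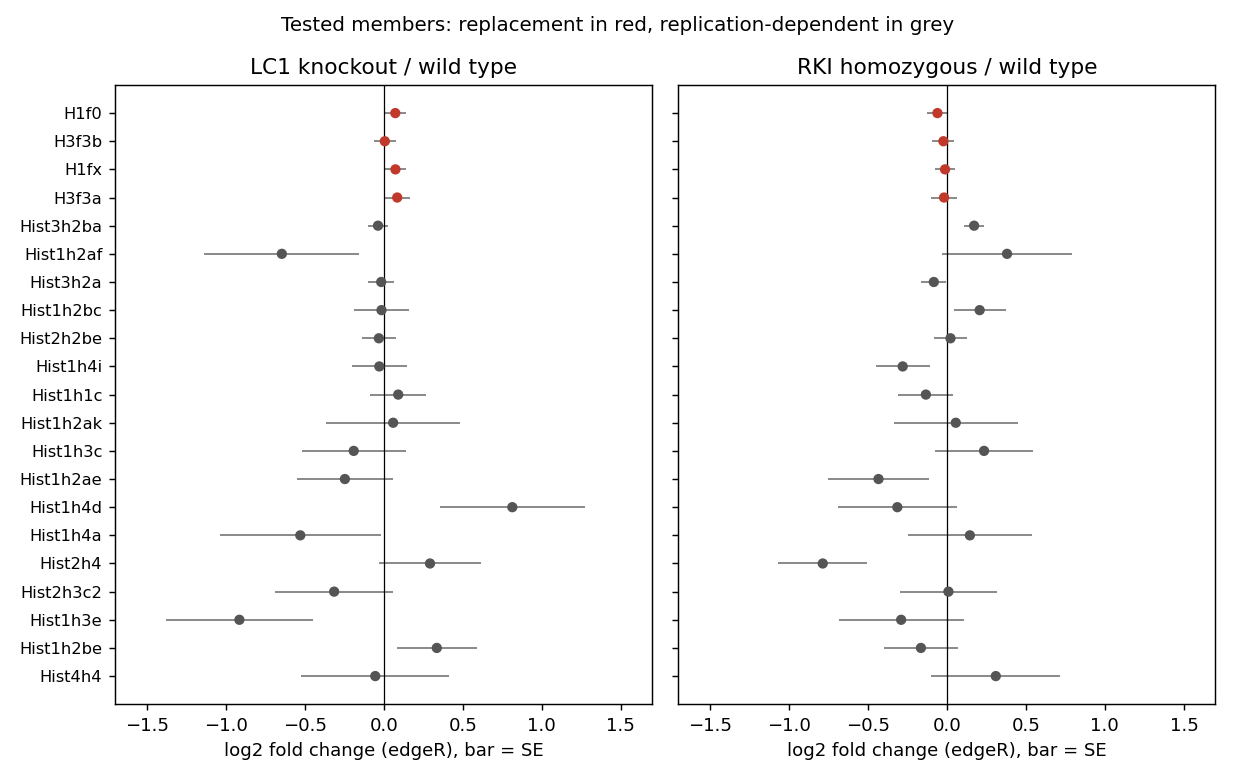
Log2 fold changes by edgeR with their standard errors (bars) for the 21 tested members in the LC1 (left) and RKI (right) comparisons, replacement genes in red and replication-dependent genes in grey, ordered within each class by level. Replacement genes lie within 0.09 of 0, and the widest errors belong to replication-dependent genes with few counts.

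Summed by class, gene counts gave no separation of genotypes. Replication-dependent sums in LC1 averaged 150 ± 6.34 CPM (SD, n = 3 per group) in wild types against 145 ± 12.3 CPM in knockouts, and in RKI 152 ± 3.37 and 163 ± 12.9 CPM, so the means differed by less than the larger SD. Replacement sums were 703 ± 32.4 and 726 ± 27.9 CPM in LC1 and 702 ± 62.9 and 683 ± 26.8 CPM in RKI. From the transcript estimates the replication-dependent difference in RKI turned, from 0.10 to -0.18 on the log2 scale. It was 0.01 without A16 and also 0.01 without homozygote A1. A16 had the highest estimate of the 12 libraries, 1464 on a scale of library total like that of CPM, against a median of 953. Hist1h2ao carried much of that estimate, at 957 on that scale in A16 and 302 to 729 in the others. No transcript of a member passed by edgeR after adjustment in either comparison, among 53 replication-dependent and 13 replacement transcripts tested, and 0 of all 47772 transcripts did (0%). At an unadjusted p under 0.05 there were 1 member transcript in LC1 and 3 in RKI, where 2.97% and 2.45% of all transcripts were.

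The difference between the RKI and LC1 effects was tested directly, and 0 members and 0 of 16002 genes (0%) passed by edgeR, as by DESeq2 and limma-voom. Hist2h4 had a difference of -1.08 (SE 0.427) and Hist3h2ba of 0.21 (SE 0.0864), the members under an unadjusted p of 0.05, where 2.42% of all genes were. RKI wild types were also set against LC1 wild types, which differ in line, litter and sex (all LC1 wild types were female), and possibly in processing day. The sex term rests on the RKI embryos alone, and line and litter cannot be told apart. No member passed, against 2 genes of 16002 (0.0125%). Hist1h4d was 1.66 higher on the log2 scale in RKI wild types (SE 0.489) and Hist2h4 was 1.17 higher (SE 0.347), and both had an adjusted p of 1 by edgeR. Without the sex term these were 1.13 and 0.91. At an unadjusted p under 0.05, 2 of the 21 members and 3.89% of genes were found. Hist1h2af was 0.96 higher (SE 0.522, adjusted p = 1), or 0.65 without the sex term, and with no filter on low counts its adjusted p was 5.79e-09 at the same fold change, against 0.755 to 1 under the other settings.

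Sex could be read only in the RKI groups, from 4 males and 2 females. No member passed, and 8 of 16002 genes did (0.05%). H3f3a, H3f3b and H1f0 were 0.22 (SE 0.0884), 0.17 (SE 0.0740) and 0.17 (SE 0.0700) higher in males, each with an adjusted p of 0.89 by edgeR. Without the female A9 the value of H1f0 was 0.08, and over left-out libraries H3f3a ran from 0.16 to 0.28 and H3f3b from 0.13 to 0.21. They are 3 of the 4 tested replacement genes, and 5 of the 21 members and 5.18% of all genes had an unadjusted p under 0.05, whereas 3.08% of all genes were higher at an unadjusted p under 0.05. H1f0 stood at 304, 311, 334 and 291 CPM in the 4 RKI males and at 271 and 281 CPM in the 2 RKI females, while the 6 LC1 females ran from 278 to 329 CPM. The LC1 embryos also differ from the RKI embryos in line and litter, so their levels cannot be read for sex.

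Other genes of the histone pathway ranged widely in level, and none passed in LC1 or RKI. The 17 genes for histone mRNA 3′ end formation were all tested, and 0 passed in LC1 or RKI, with median log2 fold changes of 0.01 and -0.01. Their mean levels ran from 0.228 RPKM for Zfp473 to 47.6 RPKM. Slbp, the stem-loop binding protein, had 9.64 ± 0.706 RPKM, and Lsm10 and Lsm11, parts of the U7 particle that cuts the pre-mRNA, had 22.6 and 12.3 RPKM. Ncbp2, of the cap binding complex, was at -0.13 (SE 0.0618) in LC1, and Lsm11 at 0.13 (SE 0.0797) in RKI, the smallest p-values of the list. Of 17 histone chaperones, at 4.12 to 79.4 RPKM, 0 passed in either comparison. Asf1b, an H3-H4 chaperone of proliferating cells, was at -0.29 in RKI (SE 0.124) with an adjusted p of 1 by edgeR. The chaperone list was not refitted without A16.

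Variant histones under other names filled out the replacement level. H2afy2, H2afx and H2afv, coding for macroH2A2, H2A.X and H2A.Z.2, had 125, 107 and 89.7 RPKM, in the range of H1f0, H3f3b and H1fx, while H2afz had 3.31 RPKM. None of the 7 tested passed, and H2afx had the lowest p in RKI, at -0.14 (SE 0.0670). Cenpa, the centromeric H3, had 14.7 ± 2.01 RPKM.

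The values of proliferation genes in RKI depended on A16. In RKI, 20 of 20 S-phase genes had a negative log2 fold change, with a median of -0.12, and 14 of 14 mitosis genes, with a median of -0.15. Without A16, 18 of 20 and 9 of 14 were positive, with medians of 0.05 and 0.03, and 0 genes of either list passed after adjustment either way. In LC1, 13 of 20 S-phase and 10 of 14 mitosis genes were positive, with medians of 0.06 and 0.03. Their part in the histone values was not tested.

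Marker lists of other cell types also leaned one way in places without a gene that passed. In LC1 the 11 microglia and macrophage genes had a median of -0.29 and the 10 meningeal and mesenchymal genes -0.20, with all members of both negative. In RKI the 12 neuronal genes had a median of 0.07, all positive, and the 12 radial glia genes -0.10, 10 of them negative. These cell type lists were not refitted without A16, so whether their RKI values depend on it was not tested. Medians lay at -0.05 and 0.05 for 13 tested erythroid genes in LC1 and RKI, at -0.05 and -0.02 for 13 endothelial and pericyte genes, and at -0.11 and -0.17 for 9 choroid plexus genes. Their part in the histone values was not tested.

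Of the tested non-members, Adprm followed the summed replication-dependent level most closely. Its Pearson r of log2 CPM over the 12 libraries was 0.86, followed by Zfp108, Sfi1, Rn7sk and Cmbl at 0.80 to 0.81. These genes were picked as the highest r of all tested non-members, and no background for such a pick was computed. The 12 libraries come from both experiments and both sexes, and Rn7sk and Cmbl were also close to Hist1h2af. Members themselves did not move as a block. The most alike pair of tested members was Hist2h4 and Hist1h4d (r = 0.75), and H3f3a and H3f3b had r = 0.61, while Hist1h4a and H1fx had r = -0.78. Group means were only 0.372 to 0.822 CPM for Hist1h4d and 0.285 to 0.561 CPM for Hist1h4a. At such levels counting error makes r unstable.

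Promoters of the replication-dependent class share letters that the name rule did not use. In RefSeq promoters (GRCm38.p6, 250 bases before to 50 after the start), CCAAT on either strand was found in 52 of 61 replication-dependent genes (85.2%), 3 of 6 replacement genes and 37.8% of 26958 other promoters. It was in every 1 of the 6 H1, 18 H2A, 15 H2B and 10 H3 genes matched, and in 3 of 12 H4 genes. TATAAA was found in 57.4%, against 14.1% of other promoters, and ATTTGCAT, the octamer, in 12 of 61 against 1.71%, with all 12 in H2A or H2B genes. AAACACA was in 5 of 6 H1 genes and in 7.12% of other promoters. Either strand was searched for each motif, and a match is a description of letters, not of binding.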

How the data were processed

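RNA of 12 whole embryonic brains was sequenced after oligo-dT library preparation, per the labels' protocols. Tools listed in the submitters' processing notes are edgeR, featureCounts 1.4.5, limma, STAR 2.0.4b and Subread, with no role for any. Build, annotation, strand and multi-mapping settings, and how transcripts were estimated, were not given in the sources used here. Deposited by the authors were raw counts per gene, RPKM per gene, estimated counts and RPKM per transcript, and tables of log2 fold changes with p-values. The authors' RKI values are wild type minus homozygous, and their sign was turned. The deposited RPKM follow the counts over the library total (largest deviation 0.0084% over 14567 genes). The 574 repeated rows equal the rows they repeat, and 1 of each was kept.

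Counts were tested with edgeR 4.0.16 (quasi-likelihood, TMM, filterByExpr, robust, group means plus sex, Benjamini-Hochberg at 0.05) over 16002 genes and all 12 libraries, with 7 residual degrees of freedom. DESeq2 1.42.0 and limma 3.58.1 (voom) were alternatives, and rounded transcript estimates were tested likewise. On simulated data with 2-fold changes in the LC1 comparison, 177 of 199 changed genes among 15851 were recovered, with 15 false calls. Every simulated gene had the common biological coefficient of variation, 6.94%. Recovery therefore does not apply to members with a wider spread, such as Hist1h2ak (25.6%) and Hist1h2af (37.4%). Same-group libraries differed beyond sampling noise in all 12 pairs (chi-square per degree of freedom 3.05 to 20.3), and totals set the precision of low genes.

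Of the 73 genes, 71 were matched to GENCODE M21 (GRCm38) by gene identifier, all 73 by transcript, and 67 to RefSeq promoters. Named are the 10 highest replication-dependent genes, the replacement genes above 0, any member past the threshold, otherwise the 3 tested members of each class with the smallest p, the 3 such genes of each list, and the 5 genes most alike in pattern. Members and lists were chosen with earlier results of these data known. Alternatives with transcript tables, without Hist1h2af and without A16 were added after seeing the data.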

Additional observations from a re-analysis of the deposited data

How the results depend on the processing

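No member passed after adjustment under any tool, scaling, sex term or left-out library. Without the filter on low counts, 1 member (Hist1h2af) passed in the LC1 comparison, the difference between effects, the comparison of wild types and that of sexes, and the genes called numbered 4 in LC1, 26 in RKI, 17 for the difference, 28 between wild types and 45 between sexes. RKI transcripts called without it numbered 2. With fewer samples, leaving out each library gave 0 to 2 genes in RKI, 0 to 1 for the difference, 1 to 4 between wild types, and 0 to 1 LC1 and 0 to 7 RKI transcripts, none of them of a member.

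Replacement over replication-dependent level was 1.55 by RPKM, 2.24 without H1f0 and Hist3h2ba, 4.64 by CPM (which does not divide by length) and 1.42 by transcript RPKM. The RKI replication-dependent sum was 0.10 on the log2 scale from gene counts and -0.18 from transcript estimates; the cause was not tested. Between wild types H1f0 and H3f3a turned to 0.0079 and 0.037 without the sex term, and H1f0 ran from -0.16 to 0.0067 over left-out libraries. In RKI, H3f3b ran from -0.051 to 0.016, H3f3a from -0.057 to 0.012 and Hist1h2af from -0.12 (without A18) to 0.72; the cause was not tested. The 9 tested members with a mean under 30 counts had standard errors of 0.28 to 0.51 on the log2 scale, and larger changes, such as -0.79 for Hist2h4 in RKI, did not pass. No paired analysis was possible because the litter of each embryo is not named, so the tests leave out the matching by litter.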
